A study of Capra hircus with 2 samples.

Results

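The miR-34 and miR-449 family was followed in 2 small RNA libraries of female goats, one of natural killer (NK) cells taken from the uterus (uNK) and one of NK cells taken from peripheral blood (pNK). The labels name no genotype, treatment, age, pregnancy stage or separation marker, and nothing says how many goats a library holds. Members were chosen by name from the authors' deposited table of differential expression: every arm of chi-miR-34a, chi-miR-34b, chi-miR-34c, chi-miR-449a, chi-miR-449b or chi-miR-449c, where chi marks the goat and is left out from here on. An arm is the strand from the 5p or the 3p side of a miRNA hairpin. The table lists 590 mature miRNAs, of which 6 belong to the family: miR-34a (named without an arm), miR-34b-5p, miR-34c-5p, miR-34c-3p, miR-449a-5p and miR-449b-5p. No arm of miR-449c is listed. Since the table holds only miRNAs that passed a filter on the difference between the libraries, a listed arm had to differ in it, and nothing is said of arms that are not listed.

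The family is known from other mammals as a set of miRNAs with a shared or nearly shared seed, the stretch near the 5′ end that pairs with target mRNAs. miR-34a is a direct transcriptional target of p53 and restrains cell cycle progression, and miR-34b and miR-34c are made from one transcript that p53 also induces. miR-449a, miR-449b and miR-449c lie in an intron of CDC20B, and together with miR-34b and miR-34c they promote the formation of motile cilia in mouse and frog. In the goat assembly ARS1.2 the 6 genes lie at 3 loci. MIR34A stands alone, with GPR157, an orphan receptor gene, as the next protein-coding gene on one side. MIR34B and MIR34C lie next to each other inside C15H11orf88, with BTG4 as the next protein-coding gene. MIR449A, MIR449B and MIR449C lie together inside CDC20B, with MCIDAS, a master regulator of multiciliated cells, as the next protein-coding gene on one side and GPX8 on the other. The sequences of the mature miRNAs were not used here.

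The uNK library totalled 31780927 reads and the pNK library 30063448, as implied by the deposited values, and the listed miRNAs took 37.4% of the uNK reads and 47.5% of the pNK reads. With 1 library per group there was no replicate check, so no p-value was computed. The intervals are exact Clopper-Pearson 95% intervals (conditional exact intervals for ratios of folds), and they cover counting error only, since reads without molecular identifiers are not independent molecules. Levels are reads per 1000000 reads of the library (RPM). A lower level in a bulk library can come from fewer cells of a type or from less RNA per cell, and these cannot be told apart. The protein-coding markers of NK cells were not measured. Of the lymphocyte miRNAs, miR-150, picked after its value was seen, had 32.2 RPM in uNK and 19052 RPM in pNK. The library labelled uNK thus carried little of miR-150. miR-155-5p had 153 RPM in uNK and 1464 RPM in pNK, while miR-181c-5p and miR-181d were higher in uNK.

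The family as a whole was lower in uNK. Its listed arms summed to 18727 reads (589 RPM) in uNK and 90309 reads (3004 RPM) in pNK, a level 5.10-fold lower in uNK (interval 5.02 to 5.18). In the authors' deposited table, 5 of the 6 arms were lower in uNK and 1 was higher. Of all listed miRNAs 62.0% were lower and 38.0% higher, and of the 314 annotated ones 45.9% were lower, so the direction of the family's arms is a common one in this table.

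miR-34a supplied nearly all family reads in both libraries. It had 18583 reads (585 RPM) in uNK, against 85379 reads (2840 RPM) in pNK. The pNK library held the higher level, and miR-34a was 4.86-fold lower in uNK (4.78 to 4.93). By reads miR-34a stood at place 41 of the 314 annotated miRNAs in uNK and at place 20 in pNK, so it was among the more abundant listed miRNAs of both. Its fold was near the middle of all listed miRNAs, of which 46.4% had a lower log2 ratio of uNK over pNK. Among the 314 annotated miRNAs its fold was number 104 from the lowest.

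miR-449a-5p, from the locus inside CDC20B, showed a much larger difference. It had 97 reads (3.05 RPM, interval 2.48 to 3.72) in uNK, against 4810 reads (160 RPM, 156 to 165) in pNK. The level was 52.4-fold lower in uNK (42.9 to 64.8). Among annotated miRNAs it stood at place 223 in uNK and at place 70 in pNK, and its fold was number 13 of the 314 from the lowest.

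miR-449b-5p, from the adjacent gene, was read only in the pNK library. It had 0 reads in uNK, against 35 reads (1.16 RPM) in pNK. A floor of 3 counts stands for 0.0944 RPM in uNK, while the exact interval of the level reaches 0.116 RPM. At that floor the level was 12.3-fold lower in uNK on the RPM scale, and the exact interval of the fold starts at 9.51-fold lower. Scaled to the totals of the listed miRNAs the floor gave 9.70-fold and with TMM 7.38-fold. miR-449a-5p was more than 10-fold lower under each scaling, and miR-449b-5p reached 10-fold on the RPM scale at the floor and with the median ratio of the listed miRNAs. On the RPM scale 30.2% of all listed miRNAs were at least 10-fold lower, and 19.7% of the annotated ones. Whether the 2 arms differed in their folds was not detectable at this depth: the ratio of the folds of miR-449b-5p over miR-449a-5p was 0, with an interval up to 5.61. In pNK there were 7.28 reads of miR-449b-5p for every 1000 reads of miR-449a-5p, so the locus was counted almost wholly through miR-449a-5p.

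**Figure D1:**
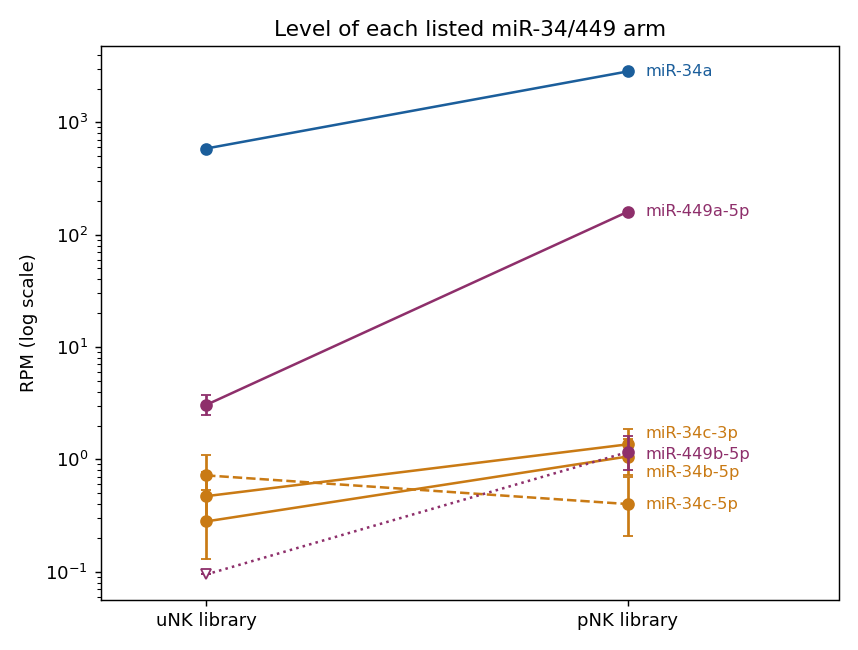
RPM on a log scale of each listed arm of the family in the uNK library (left) and the pNK library (right), coloured by locus, with bars for exact 95% counting intervals; the open triangle is the floor of 3 counts for miR-449b-5p, which had 0 reads in uNK. The line of miR-449a-5p is the steepest, at 3.05 RPM in uNK and 160 RPM in pNK, and the dashed line of miR-34c-5p is the one that slopes the other way.

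The arms of the miR-34b/c locus were rare in both libraries, and their directions parted. miR-34b-5p had 9 reads (0.28 RPM) in uNK, against 32 reads (1.06 RPM) in pNK, and was 3.76-fold lower in uNK (1.75 to 8.95). miR-34c-3p had 15 reads (0.47 RPM) in uNK, against 41 reads (1.36 RPM) in pNK, and was 2.89-fold lower (1.57 to 5.62). Both were lower in uNK beyond counting error on the RPM scale, with wide intervals. With TMM scaling the interval of miR-34c-3p held 1 (uNK over pNK fold 0.579, 0.298 to 1.07).

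miR-34c-5p, the other arm of the same hairpin, was the one member listed as higher in uNK. It had 23 reads (0.72 RPM) in uNK, against 12 reads (0.40 RPM) in pNK, which is 1.81-fold higher in uNK with an interval of 0.866 to 4.0 that holds 1. On the RPM scale its direction was therefore within counting error. Scaled to the totals of the listed miRNAs the fold was 2.30 (1.10 to 5.08), and with TMM 3.03 (1.45 to 6.69). Scaled to the median ratio of the listed miRNAs it was 1.14 (0.545 to 2.52). The fold was above 1 under each scaling, but whether its interval held 1 depended on the scaling. In the authors' deposited table its log2 ratio was 1.20, its p-value 0.0159 and its q-value 0.000815, and both were the largest of the 590 miRNAs, so this arm sat at the edge of the authors' filter. The deposited q-value is smaller than the p-value, and how the authors computed it is not given in the sources used here. The authors' log2 ratios for the members with reads in both libraries lay 0.35 above the log2 ratios on the RPM scale. Scaling to the totals of the listed miRNAs gave a shift of 0.35 as well, so for these members the 2 hardly differ.

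How the miR-34c reads divided between the arms is free of any scaling of the libraries. The 5p arm took 23 of the 38 miR-34c reads in uNK (60.5%, interval 43.4 to 76.0%) and 12 of the 53 in pNK (22.6%, interval 12.3 to 36.2%). The 5p share was higher in uNK and the intervals did not overlap. Every listed miRNA had an absolute log2 ratio of at least 1.01 by the authors, and these arms are listed in opposite directions. Arms so listed had to differ in fold, so the filter itself required a gap, and the gap is no independent evidence of a change between arms. The ratio of 5p over 3p was 5.13-fold higher in uNK (1.92 to 14.5). Among the 94 precursors with both arms listed, 13 had a larger change of the arm ratio in either direction, while 1 had fewer reads than miR-34c, so the change rests on few reads. The fold of miR-34b-5p did not differ detectably from that of miR-34c-3p (ratio 0.77, interval 0.26 to 2.17), and was lower than that of miR-34c-5p (ratio 0.15, interval 0.0466 to 0.450). miR-34b-5p and miR-34c-5p are likewise listed in opposite directions, so the filter required their folds to differ.

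**Figure D2:**
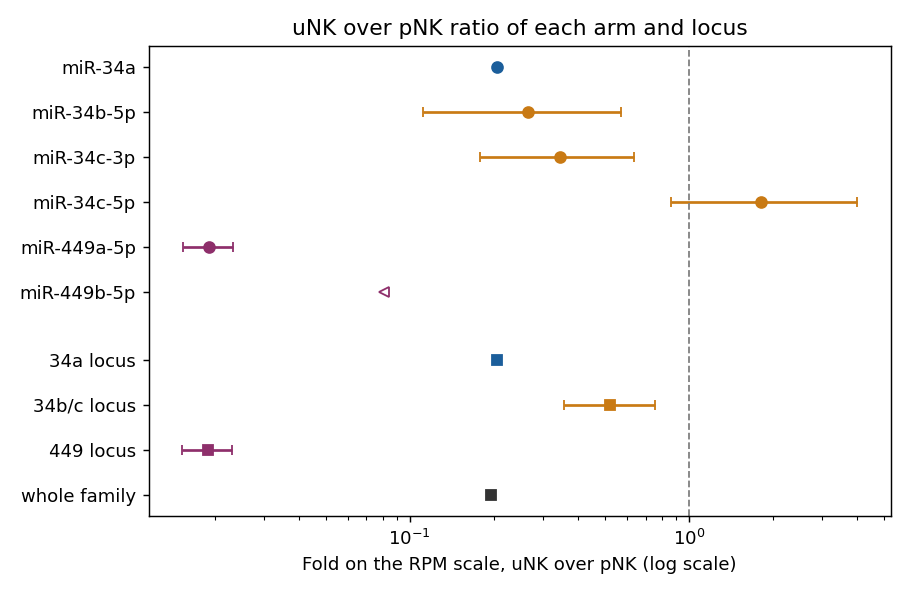
Fold of uNK over pNK on the RPM scale (log axis) for each listed arm (circles), and below for the reads summed over each locus and over the family (squares), with bars for exact 95% counting intervals; the dashed line marks a fold of 1 and the open triangle is the bound for miR-449b-5p. The miR-449 locus lies far to the left of the miR-34a locus, and miR-34c-5p is the arm whose bar crosses 1.

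The 3 loci differed in how much lower they were in uNK. Summed over listed arms, the miR-449 locus had 97 reads (3.05 RPM) in uNK and 4845 reads (161 RPM) in pNK, 52.8-fold lower in uNK (43.2 to 65.2). The miR-34b/c locus had 47 reads (1.48 RPM) in uNK and 85 reads (2.83 RPM) in pNK, 1.91-fold lower (1.32 to 2.79). With TMM scaling the uNK over pNK fold of the miR-34b/c locus was 0.875, with an interval of 0.599 to 1.26 that holds 1. The miR-34a locus is miR-34a alone. Ratios of folds between loci are free of the scaling too. The fold of uNK over pNK was 10.9 times smaller for the miR-449 locus than for the miR-34a locus (8.89 to 13.4), and 27.5 times smaller than for the miR-34b/c locus (17.9 to 42.2). The miR-34b/c sum includes miR-34c-5p, listed in the other direction than the miR-449 arms, so the filter required those arms to differ in fold. With miR-449a-5p and miR-34c-3p only, the log2 ratio of the miR-449 fold over the miR-34b/c fold was -4.18 in place of -4.78.

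The fold of the miR-34b/c locus was 2.54 times the fold of the miR-34a locus (1.74 to 3.67), so the reads of this locus were the least reduced of the 3. That difference came with miR-34c-5p, whose fold was 8.81 times that of miR-34a (4.20 to 19.4). miR-34c-5p is listed as higher in uNK and miR-34a as lower, so the filter required their folds to differ. For miR-34c-3p the ratio to miR-34a was 1.68 (0.864 to 3.10) and for miR-34b-5p 1.29 (0.542 to 2.77), and both intervals hold 1. In all, 11 ratios of folds were computed, 3 between loci and 8 between arms, and their intervals were not adjusted for that number.

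The make-up of the family reads differed between the libraries accordingly. miR-34a was 99.2% of them in uNK (99.1 to 99.4%) and 94.5% in pNK (94.4 to 94.7%). The miR-449 locus gave 0.518% in uNK (0.420 to 0.632%) and 5.36% in pNK (5.22 to 5.51%). The miR-34b/c locus gave 0.251% in uNK (0.184 to 0.334%) and 0.0941% in pNK (0.0752 to 0.116%). Between the minor loci, the miR-449 locus outnumbered the miR-34b/c locus by reads in both libraries.

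Set against miR-34a within the same library, there were 192 reads of miR-34a for each read of miR-449a-5p in uNK and 17.8 in pNK. For every 1000 reads of miR-34a there were 1.24 reads of miR-34c-5p in uNK and 0.141 in pNK. The corresponding numbers for miR-34c-3p were 0.807 in uNK and 0.480 in pNK, and for miR-34b-5p 0.484 in uNK and 0.375 in pNK. Members of the family are close in sequence, and how the authors assigned reads that match several of them is not given in the sources used here. The levels of the rare members beside the abundant miR-34a are therefore uncertain.

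**Figure D3:**
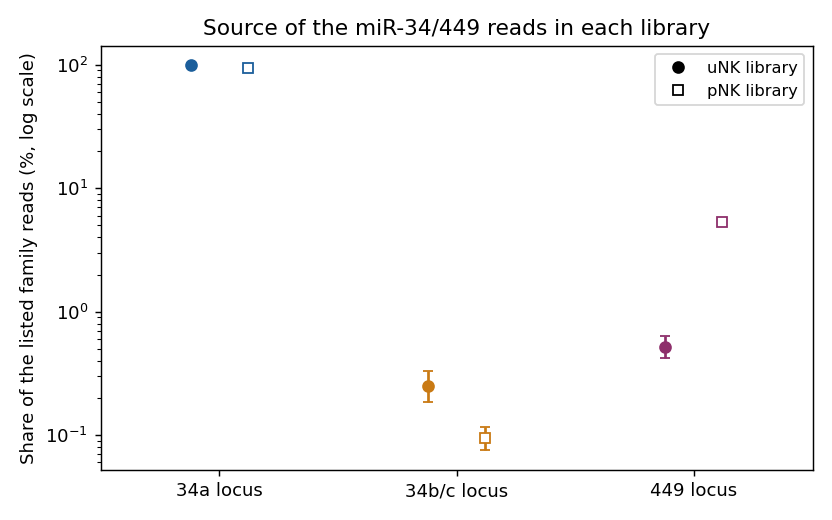
Share of the listed family reads that each locus gave (percent, log axis) in the uNK library (filled circles) and the pNK library (open squares), with bars for exact 95% counting intervals. The miR-449 locus gave 0.518% in uNK and 5.36% in pNK, while the miR-34a locus gave 99.2% in uNK and 94.5% in pNK.

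The annotated miRNAs nearest to the leading member of each locus were found by their distance over the 2 libraries on the log2(RPM + 1) scale, among those with at least 100 reads in the higher library. Nearest to miR-34a were miR-98-5p of the let-7 family (distance 0.16), at 634 RPM in uNK and 2621 RPM in pNK, miR-25-3p (0.40) and miR-378-3p (0.80). These 3 were 4.13-fold, 5.84-fold and 3.38-fold lower in uNK. Nearest to miR-449a-5p were miR-1249 (0.33), at 2.86 RPM in uNK and 128 RPM in pNK, miR-330-3p (0.61) and miR-191-3p (0.67), which were 44.6-fold, 27.2-fold and 54.2-fold lower. miR-34c-3p has the most reads of the miR-34b/c locus over both libraries summed, although miR-34c-5p has more in uNK. It had no close neighbour above the read minimum: the nearest, miR-106a-5p, miR-33b-3p and miR-16b-3p, lay 0.96, 0.99 and 1.03 away. With 2 libraries, such a likeness says only that 2 levels are similar.

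**Figure D4:**
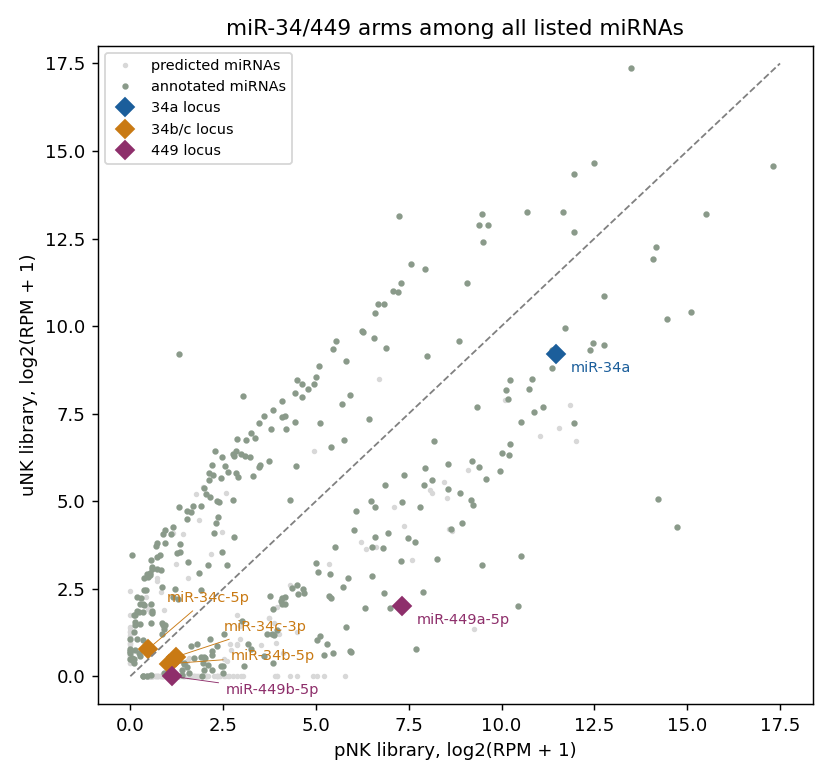
Level in the uNK library against level in the pNK library, both as log2(RPM + 1), for all 590 listed miRNAs (dots) and the 6 arms of the family (diamonds, coloured by locus); the dashed line marks equal levels. miR-34a and miR-449a-5p lie well below the line, and the other 4 arms lie near the origin.

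Other miRNAs linked to p53 divided evenly between the directions, near the division of all annotated miRNAs. The list holds 14 miRNA names known to be induced by p53 or processed with its help, the family left out, and 9 of them are in the table with 16 arms. In the authors' deposited table, 8 arms were higher in uNK and 8 lower. Of all listed miRNAs 62.0% were lower, and of the annotated ones 45.9%. The median log2 ratio of the p53-linked arms was -0.32 on the RPM scale. It was -2.20 over all listed and 1.15 over all annotated miRNAs (3 counts stand for a count of 0). The most abundant arms went both ways. miR-143-3p, abundant in smooth muscle, was 14.7-fold higher (169065 RPM in uNK and 11522 RPM in pNK), and miR-24-3p was 1.66-fold higher. miR-16a-5p, which restrains the cell cycle, was 19.2-fold lower (1173 RPM in uNK and 22492 RPM in pNK), and miR-23a was 4.54-fold lower, close to the fold of miR-34a. The list shares miR-143 and miR-145 with the stromal markers and miR-200c with the epithelial markers below.

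Markers of other cell types differed between the libraries beside the family. Of all 590 listed miRNAs 38.0% were higher in uNK and 62.0% lower, and of the 314 annotated ones 170 were higher and 144 lower. Lists with few arms can therefore fall to one side easily. All 8 listed arms of the epithelial markers, from 8 of 10 names, were higher in uNK, summing to 3609 RPM in uNK and 259 RPM in pNK, the other direction than the family as a whole. The ciliated epithelium list is the family itself, so it had no marker of its own. All 9 stromal and smooth muscle arms, from 5 of 5 names, were higher, at 185567 RPM in uNK and 12158 RPM in pNK. So were all 4 muscle arms (1329 RPM in uNK and 107 RPM in pNK), both endothelial arms (10555 RPM in uNK and 1769 RPM in pNK) and all 4 red cell arms from 2 of 3 names (9817 RPM in uNK and 3258 RPM in pNK). All 4 listed lymphocyte arms, from 3 of 5 names, were lower, at 186 RPM in uNK and 20518 RPM in pNK. The miR-181 family entered that list only through miR-181b-3p. Outside the list, and picked after their values were seen, miR-181c-5p (105.6 RPM in uNK and 53.4 RPM in pNK) and miR-181d (63.2 RPM in uNK and 20.9 RPM in pNK) were higher in uNK. Both arms of the myeloid miR-223 were lower, at 21.1 RPM in uNK and 28632 RPM in pNK. Of these marker arms, miR-181b-3p of the lymphocyte list was at 0 reads in uNK and none was at 0 in pNK. Whether these marker differences have a part in the levels of miR-34a and miR-449a-5p was not tested.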

How the data were processed

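Small RNA of uNK and pNK cells was sequenced, 1 library each; groups came from the source names. Trizol served to extract total RNA, per the labels' protocols. How reads were aligned and counted, and on which genome build and miRNA annotation, is not given in the sources used here. The deposited table holds whole-number read counts per mature miRNA. It also holds RPM values by the authors, written as 0.001 where the count is 0. The other columns of the deposited table are the authors' log2 ratio (uNK over pNK), its direction, and the authors' p-value and q-value, per the file headers.

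Library totals were the median of count over RPM for miRNAs with at least 5000 reads. Folds were ratios of counts over these totals, with a floor of 3 counts for a count of 0. Ratios of folds were conditional odds ratios. The arm ratio change was ranked after adding 0.5 counts. Interval code was tested on simulated counts. The members and lists were chosen with earlier results of these data known. A listed name without a letter took its goat letter copies too. Named were all family arms, the 3 nearest annotated miRNAs per locus and the 4 most abundant p53-linked arms; marker miRNAs named singly, miR-150 and miR-181b-3p among them, were chosen after their values were seen. A comparison of reads sharing the family seed was planned but not made, because mature sequences were not used here. Alternatives were 3 other scalings, pseudocounts, read filters, single arms per locus and the authors' log2 ratio. Tools were Python 3.11.15, numpy 2.4.6, pandas 2.3.3, scipy 1.17.1, matplotlib 3.10.9, R 4.3.3 and edgeR 4.0.16 (TMM only).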

Additional observations from a re-analysis of the deposited data

How the results depend on the processing

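No paired analysis was possible because uNK and pNK had 1 library each, which also leaves none to omit. No direction turned for the family, its loci or its 6 arms under the alternatives run. Relative to the RPM scale, the totals of the listed miRNAs shifted every log2 value by 0.35, their median ratio by -0.67 and TMM by 0.74; all were computed only on miRNAs called different. With these scalings in that order the log2 fold was -2.00, -3.02 and -1.61 for the whole family, -1.93, -2.95 and -1.54 for the miR-34a locus, and -5.38, -6.39 and -4.98 for the miR-449 locus. For the miR-34b/c locus it was -0.93 on the RPM scale, -1.60 with the median ratio, -0.19 with TMM and -1.53 with miR-34c-3p only, its most abundant arm by the reads of both libraries summed, which leaves out miR-34b-5p and the one arm that was higher in uNK, miR-34c-5p. With that arm only, the log2 ratio of the miR-34b/c fold over the miR-34a fold was 0.75 in place of 1.35, the miR-34b/c share of the family was 0.0802% in uNK and 0.0454% in pNK, and the miR-34a share in uNK was 99.4%. A pseudocount of 5 RPM took the log2 fold of miR-449a-5p to -4.36, and those of miR-34b-5p and miR-34c-3p to -0.20 and -0.22. For miR-449b-5p the log2 fold at the floor was -3.62 on the RPM scale and -2.88 with TMM. Its log2 fold was -1.11 with 1 RPM added and -0.30 with 5 RPM added. The counts of the p53-linked list with filters of 10 and 100 reads stayed within 1.5 times. A minimum of 100 reads leaves no arm of the miR-34b/c locus and, summed over both arms and libraries, not the miR-34c hairpin either, so these gave no value; the hairpin's minimum and the authors' log2 ratio were chosen after the data were seen. Depth limits 4 of the 6 arms, which had under 50 reads in both libraries.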
